A study of Mus musculus with 12 samples.

Results

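Solute carriers (Slc genes) are a large superfamily of membrane transporters, and each gene family of it is numbered by sequence relationship. The genes described here are those whose symbol is Slc followed by a number and that had a probe called well above its background by the scanner software on 8 or more of the 12 arrays, with 8 genes left out (Slc1a3, Slc2a1, Slc2a5, Slc7a2, Slc11a1, Slc11a2, Slc16a3 and Slc40a1). The rule gave 222 genes (279 probes) of the 364 Slc genes (467 probes) on the array. In all 19801 genes were tested, where a probe without a gene symbol counted under its accession. Of the 222 genes, 204 were well above background on all 12 arrays with the probe used. The cells were primary microglia shaken off mixed glial cultures from newborn C57BL/6 mice. They were given the supernatant of restimulated Th1 cells (Th1 microglia), the supernatant of Th17 cells (Th17 microglia) or T cell medium that had held no T cells (untreated microglia). Each group had 4 arrays, 1 from each of experiments 12, 13, 14 and 16. A supernatant differs from the medium both in what the T cells released and in what they took up.

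Carriers move their substrate down a gradient, or uphill by coupling it to sodium, protons or a counter-ion. They supply cells with sugars, amino acids, nucleosides, vitamins and metals, and they also work inside the cell: the Slc25 family sits in the inner mitochondrial membrane, the Slc35 family brings nucleotide sugars into the Golgi, and others load or empty lysosomes and vesicles. In macrophages and microglia they are known for the supply of glucose and amino acids during activation and for withholding metals from microbes. A few genes carry an Slc symbol without being transporters, among them Slc9a3r1, Slc9a3r2 and Slc7a6os. Genes were placed in substrate classes by family, so single genes can move another substrate than their class says.

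Signals are given after normalisation, on a scale where the 75th percentile of an array is 1500 and the lowest value 15, and the values of a group stand in the order of experiments 12, 13, 14 and 16. Changes are given on the log2 scale with the SE that limma estimated (n = 4 arrays per group), with p-values adjusted by Benjamini-Hochberg over all 19801 genes. A gene was called where its adjusted p was under 0.01 and its change over 2-fold, the thresholds of the study. Between 54.5% and 65.0% of the probes were well above background on an array, and no spot was saturated. The mean log2 signal of 10 microglia markers was 14.09 to 14.71 in Th1 microglia, 15.15 to 15.82 in Th17 microglia and 15.07 to 15.77 in untreated microglia, and Csf1r and Itgam, which define the cells, differed by -0.19 and 0.03 after Th1 supernatant. The mean log2 signal of 7 astrocyte markers was 7.11 to 8.25, 7.62 to 8.61 and 7.37 to 8.70 in Th1, Th17 and untreated microglia, and within each group it was highest in experiment 14. Of the microglia markers Trem2 (-2.50 ± 0.22), Fcrls (-2.41 ± 0.35), Tmem119 (-2.29 ± 0.48) and Cx3cr1 (-6.31 ± 0.70) were called lower and P2ry12 (1.61 ± 0.22) and Aif1 (1.18 ± 0.26) higher after Th1 supernatant. Single genes of the lists for other cell types were also called, as were 15.4% of all genes tested. Those called higher were Mag and Cnp of 9 oligodendrocyte lineage genes, Syn1 of 5 neuronal, Vwf of 5 endothelial and Lck of 5 T cell genes (1.67 to 3.79). Those called lower were Mbp and Cspg4, Rbfox3, Cd5 and Cd28 of the same lists and Fabp7 of the astrocyte list (-1.31 to -5.28), and none of the 4 fibroblast and mural genes passed even an unadjusted p under 0.05 in limma. The mean log2 signal of the 5 T cell genes was 8.70 to 9.09, 9.19 to 9.75 and 9.78 to 9.93 in Th1, Th17 and untreated microglia, and Cd3d, Cd3g, Cd2 and Il2ra were well above background on 0 of the 12 arrays. The part of other cell types in the results was not tested, and in bulk RNA fewer cells of a type cannot be told apart from less RNA per cell.

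After Th1 supernatant 41 of the 222 genes were called, 14 higher and 27 lower than in untreated microglia. These are 18.5% of the genes, against 15.4% of all genes tested. Calls for a higher signal took 6.31% of the Slc genes and 7.49% of all genes, and calls for a lower signal took 12.2% of the Slc genes and 7.88% of all genes. These shares rest on unlike filters, since Slc genes needed 8 arrays well above background and all genes 4. A gene seen only on the 4 Th1 arrays could thus not be a member, while 1 seen only on the 8 others could. With 8 arrays asked of every gene, 15.5% of all genes were called, a share that was not split by direction. The median log2 fold change was -0.13 over the Slc genes and -0.06 over all genes. In each of the 41 the Th1 arrays did not overlap with the untreated arrays, as in 98.3% of all called genes, and all 4 pairs of the same experiment moved the same way, as in 99.5% of all called genes. Over genes called or not, the groups did not overlap in 44.6% of the Slc genes and in 40.7% of all genes. After Th17 supernatant 0 of the 222 were called by limma, as were 0% of all genes in either direction, and 4 of the 222 had an unadjusted p under 0.05. At adjusted p under 0.05 with no fold minimum, 107 genes passed after Th1 supernatant, 49 higher and 58 lower, which is 48.2% of the Slc genes against 44.3% of all genes. Of the 181 genes not called, 35 had an adjusted p under 0.01 and changed by less than 2-fold, 20 of them higher and 15 lower. The same share over all genes was not counted, here or for the classes below. The log2 fold change stayed within 0.5 of no change in 50.9% of the Slc genes after Th1 supernatant, against 58.2% of all genes, and in 98.6% after Th17 supernatant, against 95.7% of all genes.

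**Figure D1:**
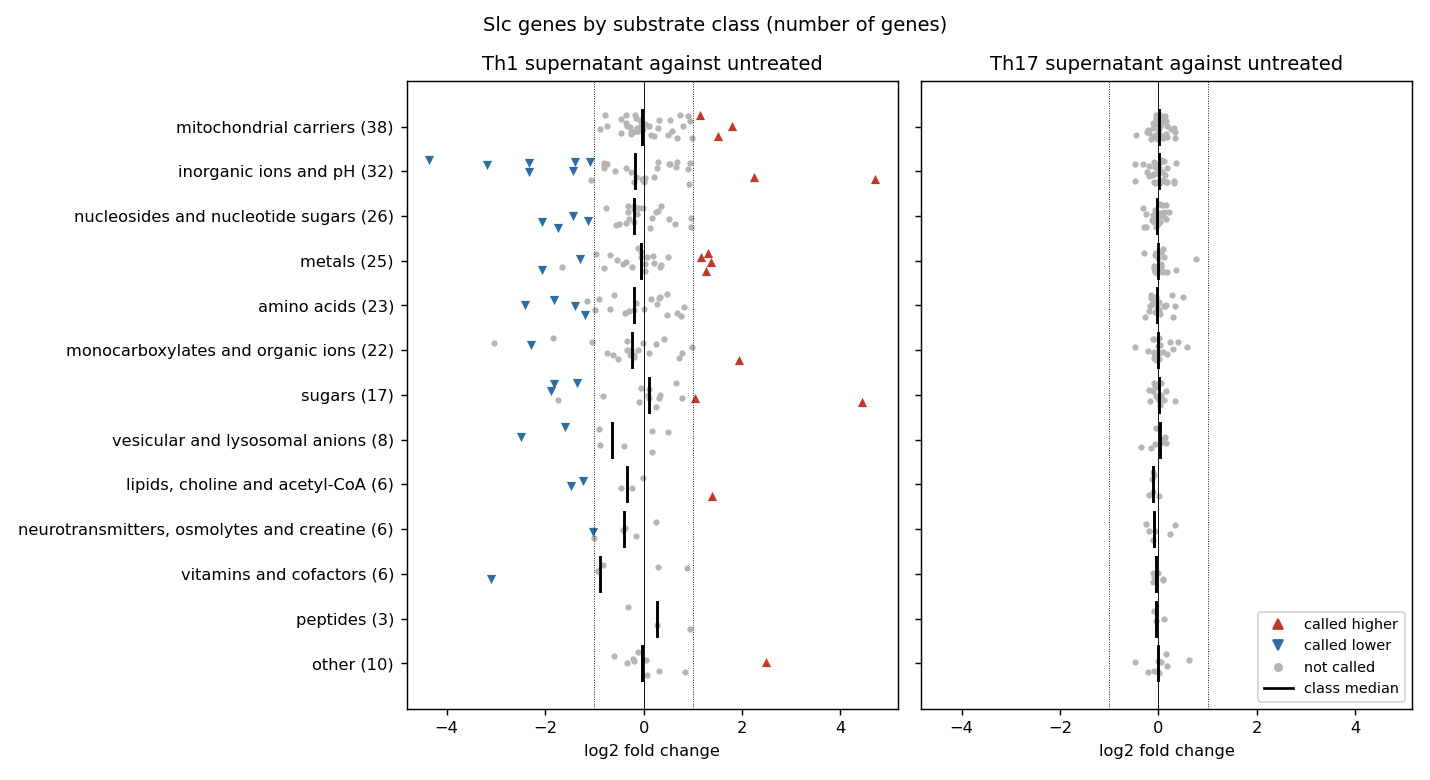
Log2 fold change of each of the 222 Slc genes (points) by substrate class, after Th1 supernatant (left) and Th17 supernatant (right), against untreated microglia, with the class median as a black bar and 2-fold changes as dotted lines. The 14 genes called higher and 27 called lower after Th1 supernatant lie outside the dotted lines with 8 genes that were not called, while no gene does after Th17 supernatant.

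The calls were spread over 26 of 47 families, and 4 families (Slc2, Slc4, Slc12 and Slc37) held calls in both directions. Beside the class counts below, 7.49% of all genes tested were called higher and 7.88% lower. By class, calls for a higher and for a lower signal numbered 2 and 7 of 32 carriers of inorganic ions, 4 and 2 of 25 metal carriers, 2 and 3 of 17 sugar carriers, 0 and 4 of 23 amino acid carriers, 0 and 4 of 26 carriers of nucleosides and nucleotide sugars and 3 and 0 of 38 mitochondrial carriers. The smaller classes had 1 and 1 of 22 (monocarboxylates and organic ions), 1 and 2 of 6 (lipids, choline and acetyl-CoA), 0 and 2 of 8 (vesicular and lysosomal anions), 0 and 1 of 6 (vitamins and cofactors), 0 and 1 of 6 (neurotransmitters, osmolytes and creatine), 0 and 0 of 3 (peptides) and 1 and 0 of 10 (other). Where a class had 0 calls in a direction by limma, the genes with an unadjusted p under 0.05 in that direction numbered 6 higher amino acid carriers, 5 higher carriers of nucleosides and nucleotide sugars, 5 lower mitochondrial carriers, 1 higher vesicular anion carrier, 2 higher vitamin carriers, 0 higher neurotransmitter carriers, 1 higher and 1 lower peptide carrier and 0 lower genes of the other class. Class medians lay between -0.88 (vitamins and cofactors) and 0.27 (peptides). Each of the 3 array slides held arrays of each group. The 41 called genes kept their sign within each slide, which had to be so since their Th1 and untreated arrays did not overlap. Of the 41, 30 exceeded 2-fold within every slide, and the same share over all called genes was not counted.

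**Figure D2:**
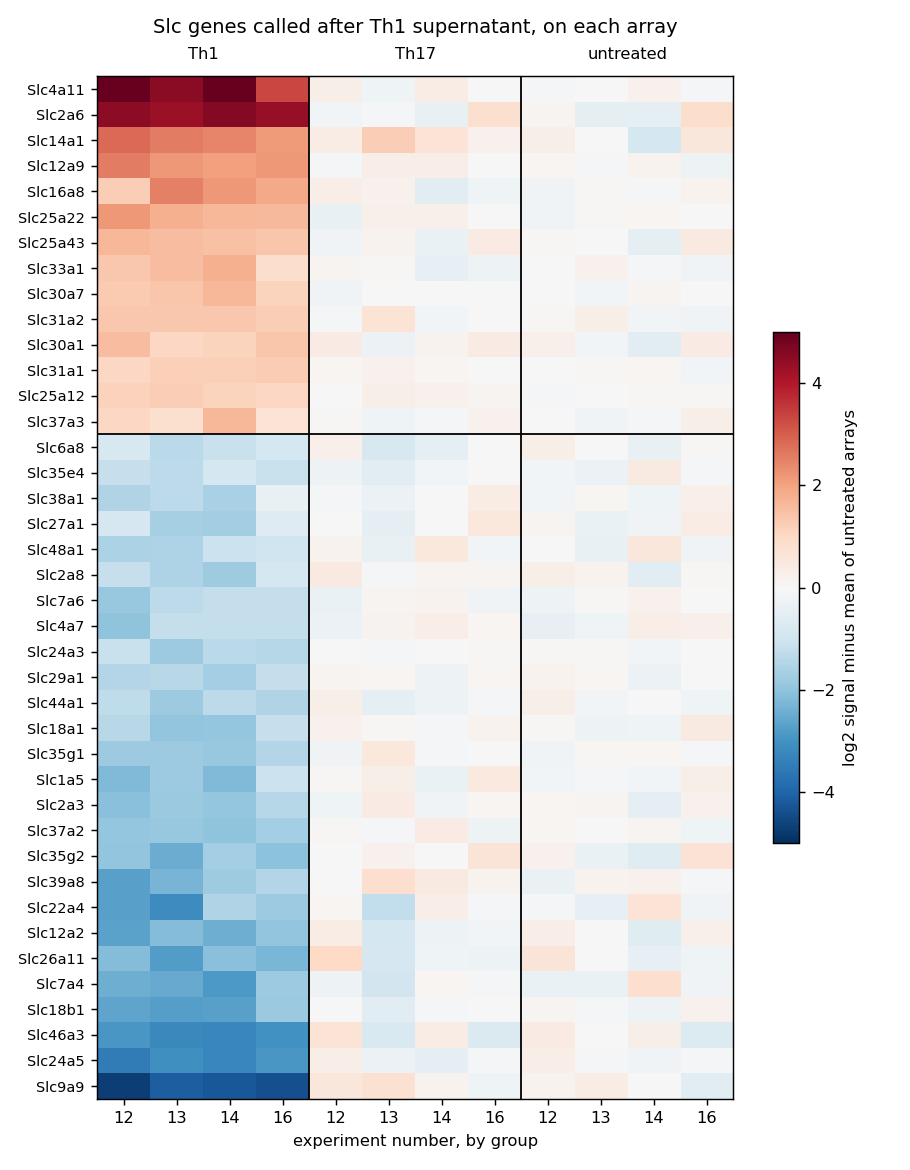
Log2 signal of 40 of the 41 Slc genes called after Th1 supernatant (rows, ordered by fold change) on each of the 12 arrays (columns, by group and experiment), minus the mean of the untreated arrays, with the colour scale ending at 5 in either direction. The Th1 columns are red in the upper 14 rows and blue in the lower 26, and the Th17 columns stay near the untreated ones.

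Among sugar carriers the change of Slc2a6 was the largest. Slc2a6 encodes GLUT6, a facilitative sugar transporter kept mostly on intracellular membranes. Its signal was 151083, 135735, 162604 and 136112 in Th1 microglia, 6171, 6362, 5185 and 11631 in Th17 microglia and 7390.2, 4767, 4748 and 12267 in untreated microglia. The lowest Th1 array was above every other array by a wide margin, and experiment 16 was the highest of the Th17 and of the untreated arrays. The change was 4.44 ± 0.31, adjusted p = 9.65e-07. Slc37a3, a sugar phosphate family member found on lysosomes, had 1355, 1131, 2059 and 1055 in Th1 microglia, 689, 565, 629 and 765 in Th17 microglia and 640.2, 579, 618 and 814 in untreated microglia. The Th1 values lay above all others, with experiment 14 the highest (1.04 ± 0.20, adjusted p = 0.00144). That call was lost without the Th1 array of experiment 14 (0.84) or the untreated array of experiment 13 (0.98), both under 2-fold.

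The other called sugar carriers were lower after Th1 supernatant. Slc2a3 encodes GLUT3, the high-affinity glucose transporter, and had 256, 303, 287 and 407 in Th1 microglia, 947, 1442, 964 and 1176 in Th17 microglia and 1153, 1209, 785 and 1277 in untreated microglia. Every Th1 array was below every other array (-1.82 ± 0.20, adjusted p = 2.57e-05). Slc2a8, which encodes the intracellular sugar transporter GLUT8, had 3055 to 5675 in Th1 microglia against 7403 to 12766 in untreated microglia (-1.35 ± 0.22, adjusted p = 0.000443). Slc37a2, a sugar phosphate exchanger of the endoplasmic reticulum that is abundant in macrophages, had 6654, 6894, 6371 and 7882 in Th1 microglia, 26437, 24312, 33722 and 21659.9 in Th17 microglia and 27055, 25534, 28443 and 21741 in untreated microglia. The 4 Th1 values were close together and under all 8 others (-1.88 ± 0.14, adjusted p = 1.85e-06). Families Slc2 and Slc37 each held 1 gene called higher beside genes called lower. The 12 sugar carriers not called ran from -1.73 (Slc5a3) to 0.78, and the urate and sugar carrier Slc2a9 changed least (-0.05 ± 0.16).

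**Figure D3:**
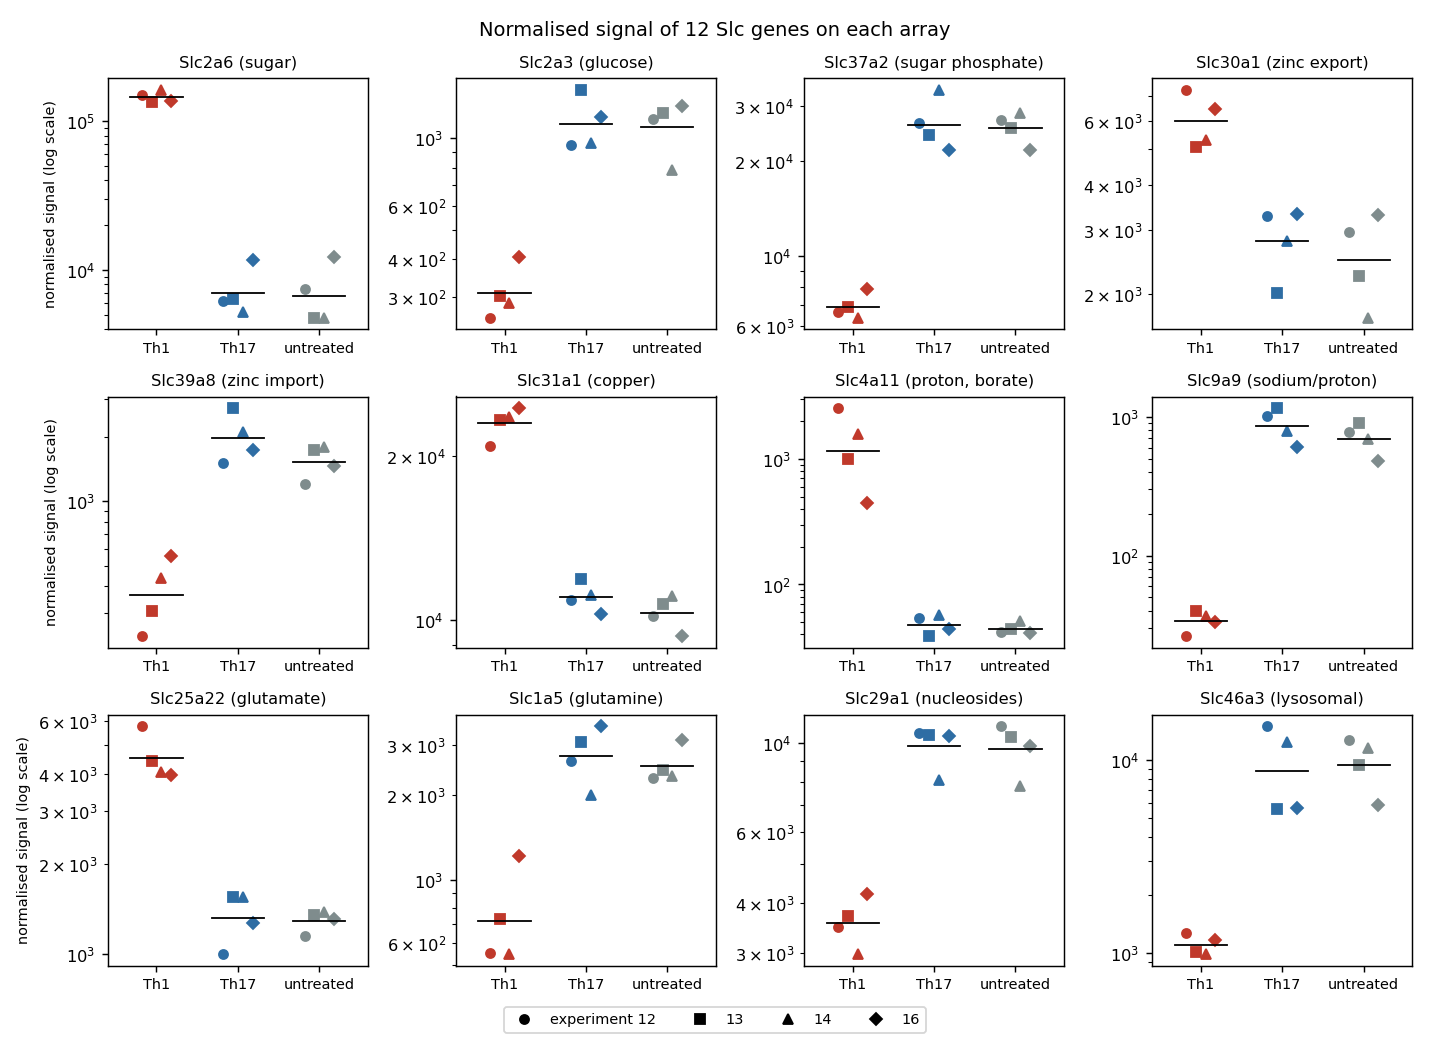
Normalised signal (log scale) of 12 Slc genes on each array, with Th1, Th17 and untreated microglia from left to right, symbols for the 4 experiments and a bar at the geometric mean. In all 12 panels the Th1 arrays do not overlap with the untreated arrays, for example 135735 to 162604 in Th1 microglia against 4748 to 12267 in untreated microglia for Slc2a6.

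Promoter windows, 250 bases before to 50 after the annotated start, were read from RefSeq (GRCm38.p6). They are shown for the 3 largest rises and the 3 largest falls among the called genes for which one was read, which leaves out Slc4a11 and Slc14a1, because interferon-gamma, the signature cytokine of Th1 cells, is known to act through short elements near start sites. Of the 222 genes, 170 had a window. The gamma-activated site was searched as TTCNNNGAA and the interferon-stimulated response element as GAAANNGAA, on both strands, and the 2 patterns can overlap. The first was found in 8.30% and the second in 8.56% of all 32851 windows. By gene, over any of its windows, they were found in 9.55% and 9.76% of all genes with a window and in 5.88% and 7.65% of the 170 Slc genes. Of the 29 called Slc genes with a window 1 held the first pattern (Slc46a3) and 4 the second (Slc25a22, Slc25a43, Slc27a1 and Slc39a8). Matches are in capitals in the windows of Slc2a6 (chr2:27027949-27028248, minus strand), Slc12a9 (chr5:137333533-137333832, minus strand), Slc16a8 (chr15:79254699-79254998, minus strand), Slc9a9 (chr9:94669642-94669941, plus strand), Slc24a5 (chr2:125067877-125068176, plus strand) and Slc46a3 (chr5:147894766-147895065, minus strand). Of these 6, only the Slc46a3 window held a match to the first pattern.
Slc2a6: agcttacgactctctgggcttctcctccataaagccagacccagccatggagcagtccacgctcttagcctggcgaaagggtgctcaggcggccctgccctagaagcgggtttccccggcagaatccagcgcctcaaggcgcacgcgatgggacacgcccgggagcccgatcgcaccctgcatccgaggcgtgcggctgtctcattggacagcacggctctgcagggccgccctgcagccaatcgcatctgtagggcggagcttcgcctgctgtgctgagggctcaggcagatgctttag
Slc12a9: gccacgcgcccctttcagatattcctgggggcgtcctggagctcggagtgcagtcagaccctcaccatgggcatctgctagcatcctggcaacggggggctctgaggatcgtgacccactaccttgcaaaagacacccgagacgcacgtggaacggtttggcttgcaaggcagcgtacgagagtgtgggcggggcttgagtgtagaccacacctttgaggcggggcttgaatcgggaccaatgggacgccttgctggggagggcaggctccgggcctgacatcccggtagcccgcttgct
Slc16a8: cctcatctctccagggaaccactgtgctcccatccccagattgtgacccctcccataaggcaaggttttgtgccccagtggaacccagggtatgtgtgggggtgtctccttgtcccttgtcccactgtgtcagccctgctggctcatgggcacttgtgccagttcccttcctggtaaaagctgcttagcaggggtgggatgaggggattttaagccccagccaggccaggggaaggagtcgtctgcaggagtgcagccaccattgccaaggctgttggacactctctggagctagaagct
Slc9a9: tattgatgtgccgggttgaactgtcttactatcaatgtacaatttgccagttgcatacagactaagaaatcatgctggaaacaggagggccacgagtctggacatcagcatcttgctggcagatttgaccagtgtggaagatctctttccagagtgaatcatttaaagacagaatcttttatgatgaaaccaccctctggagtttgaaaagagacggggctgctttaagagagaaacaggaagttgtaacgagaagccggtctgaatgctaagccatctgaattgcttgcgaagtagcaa
Slc24a5: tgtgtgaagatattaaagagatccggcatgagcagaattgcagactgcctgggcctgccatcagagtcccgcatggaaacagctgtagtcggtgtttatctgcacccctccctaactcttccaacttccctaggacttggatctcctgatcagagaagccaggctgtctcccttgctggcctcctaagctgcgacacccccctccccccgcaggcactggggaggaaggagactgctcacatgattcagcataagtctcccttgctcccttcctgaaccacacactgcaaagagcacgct
Slc46a3: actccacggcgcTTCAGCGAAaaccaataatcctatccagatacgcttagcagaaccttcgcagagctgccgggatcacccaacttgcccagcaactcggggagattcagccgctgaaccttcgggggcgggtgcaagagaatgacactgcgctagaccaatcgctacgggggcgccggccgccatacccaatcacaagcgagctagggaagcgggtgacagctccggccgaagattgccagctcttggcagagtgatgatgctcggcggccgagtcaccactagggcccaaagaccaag

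Metal carriers moved in both directions. Slc30a1 encodes ZnT1, which exports zinc across the plasma membrane, and had 7298, 5078, 5324 and 6475 in Th1 microglia, 3269.7, 2011, 2804 and 3322 in Th17 microglia and 2961, 2239.8, 1716 and 3306 in untreated microglia. All Th1 arrays lay above all others (1.27 ± 0.23, adjusted p = 0.000863). Slc30a7 encodes ZnT7, which carries zinc into the Golgi, and had 3722 to 5498 in Th1 microglia against 1574 to 1906 in untreated microglia (1.37 ± 0.12, adjusted p = 5.28e-06). Of its 3 probes 1 passed the thresholds, and the changes of the probes ran from 0.68 to 1.37. Slc39a8 encodes ZIP8, a zinc and manganese importer, and had 235, 309, 441 and 558 in Th1 microglia, 1503, 2724, 2104 and 1736 in Th17 microglia and 1199.5, 1733, 1794 and 1453 in untreated microglia. Here every Th1 array was the lower (-2.06 ± 0.27, adjusted p = 9.4e-05). Of the 5 other Slc30 genes and the 11 other Slc39 genes measured, 0 were called by limma, and 1 more Slc30 gene and 2 Slc39 genes were higher and 1 and 4 lower at an unadjusted p under 0.05. The zinc carriers Slc30a4 (0.03 ± 0.20) and Slc39a3 (0.03 ± 0.10) changed least. In a list of 4 zinc-buffering genes, Mt1, a metallothionein, was called lower, with 32631 to 63322 in Th1 microglia against 93386 to 163351 in untreated microglia (-1.58 ± 0.29, adjusted p = 0.00104), and Mt2, Mt3 and Mtf1 were not called (-1.13 ± 0.47, 0.01 ± 0.12 and 0.44 ± 0.20).

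Both copper carriers rose. Slc31a1 encodes CTR1, the main copper importer, and had 20896, 23361, 23572 and 24545 in Th1 microglia, 10892, 11868, 11114 and 10242 in Th17 microglia and 10167, 10697, 11047 and 9335 in untreated microglia. Its Th1 values were well clear of the rest, and the spread within groups was small (1.16 ± 0.09, adjusted p = 2.67e-06). Slc31a2 encodes CTR2, a relative found on endosomes and lysosomes, and had 46436, 45471, 45358 and 42499.6 in Th1 microglia, 16654, 28963, 16584 and 18152 in Th17 microglia and 18745, 21951, 16307 and 15833 in untreated microglia. The Th17 array of experiment 13 stood above the other Th17 and untreated arrays but below every Th1 array (1.31 ± 0.18, adjusted p = 0.000112). In the annotation the pair lies close together on chromosome 4, with 1 gene between them. Slc48a1, which encodes the heme carrier HRG1 of the lysosome, was called lower, with 14868 to 21912 in Th1 microglia against 34257 to 64793 in untreated microglia (-1.30 ± 0.24, adjusted p = 0.00108).

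The largest rise and the largest fall of the 222 genes were both among carriers of inorganic ions. Slc4a11, a plasma membrane carrier known from the corneal endothelium that conducts protons, had 2552, 1002, 1583 and 448 in Th1 microglia, 54, 38.8, 57.4 and 44.1 in Th17 microglia and 41.8, 44, 51.5 and 41.1 in untreated microglia. The Th1 arrays themselves ran from 448 to 2552, and the lowest of them was still above every Th17 and untreated array (4.71 ± 0.41, adjusted p = 4.71e-06). Slc9a9 encodes NHE9, which exchanges sodium or potassium for protons in endosomes. It had 26.3, 39.8, 37 and 33 in Th1 microglia, 1012, 1159, 789.6 and 603 in Th17 microglia and 772, 898, 691 and 478 in untreated microglia. The Th1 arrays were close to background, with 2 of 4 well above it (-4.36 ± 0.24, adjusted p = 1.43e-07). Slc4a7, a sodium bicarbonate cotransporter, had 1306 to 2291 in Th1 microglia against 4003 to 6559 in untreated microglia (-1.40 ± 0.23, adjusted p = 0.000458), while its second probe changed by 0.80 with an adjusted p of 0.327.

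Slc24 genes encode exchangers of sodium for calcium and potassium, and both measured members fell. Slc24a5, known from melanosomes and the trans-Golgi, had 216, 289, 256 and 319 in Th1 microglia, 3050.2, 1974, 1780.3 and 2293 in Th17 microglia and 3022, 2278, 2123 and 2357 in untreated microglia. No Th1 array exceeded 319, and no other array was under 1780.3 (-3.18 ± 0.18, adjusted p = 2.16e-07). Slc24a3 had 1383 to 2255 in Th1 microglia against 4402 to 5089.7 in untreated microglia (-1.42 ± 0.13, adjusted p = 8.45e-06). Slc26a11, a sodium-independent sulfate carrier, also fell, with 419 to 679 in Th1 microglia against 2188 to 4510.2 in untreated microglia (-2.34 ± 0.35, adjusted p = 0.000253). The 23 carriers of inorganic ions not called ran from -1.07 to 0.94, with the anion exchanger Slc4a2 the least changed (0.01 ± 0.09).

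The Slc12 family cotransports chloride with sodium or potassium, and its members set cell volume and intracellular chloride. Slc12a2 encodes NKCC1, which loads chloride, and had 918, 1281, 1065 and 1465 in Th1 microglia, 7492, 3171, 4840.5 and 5258 in Th17 microglia and 7343, 5827, 3865 and 6951 in untreated microglia. All Th1 arrays were lower than all others (-2.32 ± 0.27, adjusted p = 4.14e-05). Slc12a9, a more distant relative, had 6471, 4977, 4493 and 4985 in Th1 microglia, 1060.5, 1383, 1396 and 1067 in Th17 microglia and 1168, 1064, 1253 and 926 in untreated microglia. It rose in every experiment (2.24 ± 0.15, adjusted p = 6.83e-07). In a list of 11 partners of carriers, 2 were called higher and 1 lower, beside 7.49% and 7.88% of all genes tested. Stk39, a kinase that phosphorylates Slc12 cotransporters, had 209 to 315 in Th1 microglia against 18.3 to 46.6 in untreated microglia (3.14 ± 0.29, adjusted p = 6.42e-06), and its relative Oxsr1 and the upstream kinase Wnk1 were not called (0.28 ± 0.19 and -0.80 ± 0.17). Emb, a partner of monocarboxylate carriers, was called higher (2.29 ± 0.43, adjusted p = 0.00121). Nedd4l, a ubiquitin ligase of ion carriers, was called lower (-1.25 ± 0.14, adjusted p = 3.2e-05).

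All 4 called amino acid carriers fell, and they were 17.4% of the class, near the 15.4% called of all genes. Of the class members not called, 3 were higher and 1 lower at an adjusted p under 0.01 in limma. Slc1a5 encodes ASCT2, an exchanger of glutamine and other neutral amino acids, and had 553, 727, 547 and 1214 in Th1 microglia, 2639, 3074, 2002 and 3503 in Th17 microglia and 2301, 2456, 2329 and 3116 in untreated microglia. The Th1 arrays were lower, with experiment 16 the highest of them (-1.82 ± 0.25, adjusted p = 0.000156). Slc38a1, a sodium-coupled glutamine carrier, had 3162 to 7455 in Th1 microglia against 8385 to 11508 in untreated microglia (-1.19 ± 0.25, adjusted p = 0.00252). Slc7a6, the y+LAT2 exchanger of cationic and neutral amino acids, had 193 to 318 in Th1 microglia against 605 to 842 in untreated microglia (-1.39 ± 0.18, adjusted p = 8.89e-05). Slc7a4, a relative of the cationic amino acid carriers, had 206, 193, 152 and 313 in Th1 microglia, 926, 595, 1179.5 and 1073 in Th17 microglia and 894, 879, 1967 and 986 in untreated microglia. The untreated array of experiment 14 stood above the other untreated arrays, and all Th1 arrays lay below all others (-2.41 ± 0.31, adjusted p = 8.02e-05). Without the 3 arrays of experiment 14, Slc38a1 changed by -1.12 with an adjusted p of 0.019 and was not called. The 19 amino acid carriers not called ran from -1.15 (Slc7a11) to 0.81, with the glutamate carrier Slc1a7 the least changed (0.01 ± 0.15).

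The following amino acid carriers are given for their known roles and were chosen after their values were seen. Slc7a5 encodes LAT1, the importer of large neutral amino acids, and Slc3a2 encodes the heavy chain it pairs with. Slc7a5 had 194 to 353 in Th1 microglia against 146 to 176 in untreated microglia and changed by 0.76 ± 0.16, adjusted p = 0.00232, under 2-fold, while its second probe changed by -0.68 with an adjusted p of 0.0483. Slc3a2 changed by 0.31 ± 0.12, adjusted p = 0.0617. Slc38a9, a lysosomal arginine sensor, changed by 0.15 ± 0.12, adjusted p = 0.327, and its 3 probes ran from -0.64 to 0.57. Beside the list counts that follow, 7.49% of all genes tested were called higher and 7.88% lower. In a list of 15 genes of lysosomal amino acid sensing 0 were called by limma, with a median of -0.20. At an unadjusted p under 0.05 in limma 2 of these were higher and 6 lower. In a list of 13 genes of the amino acid response, 3 were called higher and 1 lower, with a median of 0.29. They were Chac1 (2.66 ± 0.53, adjusted p = 0.00179), Trib3 (2.10 ± 0.51, adjusted p = 0.00625), the serine synthesis enzyme Psat1 (2.21 ± 0.17, adjusted p = 2.3e-06) and, lower, the transcription factor Atf5, which fell by 1.00 on the log2 scale (adjusted p = 0.00775). The calls of Atf5, Trib3 and Chac1 were not stable. That of Chac1 was lost only without the 3 arrays of experiment 14 (2.48, adjusted p = 0.0198). That of Atf5 was lost without any 1 of the 8 Th1 and untreated arrays (-1.09 to -0.82, adjusted p 0.01 to 0.0255), and that of Trib3 without the Th1 array of experiment 12 (1.71) or 14 (1.95) or the untreated array of experiment 12 (2.12) or 13 (1.80), with adjusted p from 0.0149 to 0.021. Atf4, the transcription factor that drives this response, changed by 0.41 ± 0.25, adjusted p = 0.213.

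Of the 38 mitochondrial carriers 3 were called higher and 0 lower by limma, a share of 7.89%. Of all genes 15.4% were called, and 7.49% were called higher. Among the carriers not called, 4 were higher and 2 lower at an adjusted p under 0.01. Slc25a22 carries glutamate into the mitochondrion and had 5789, 4421, 4062 and 3982 in Th1 microglia, 999, 1556, 1548 and 1267 in Th17 microglia and 1150.1, 1347, 1381 and 1308 in untreated microglia. The Th1 arrays were at least 3982 and no other array exceeded 1556 (1.80 ± 0.16, adjusted p = 6.41e-06). Slc25a12, the aspartate and glutamate carrier, had 13064, 13566, 12705 and 12063 in Th1 microglia, 5795, 7055, 6786 and 6433 in Th17 microglia and 5441, 5728, 6005 and 6090.4 in untreated microglia. The groups were tight and did not overlap (1.14 ± 0.09, adjusted p = 2.54e-06). Slc25a43, whose substrate is not established, had 732 to 882 in Th1 microglia against 199 to 385 in untreated microglia (1.52 ± 0.20, adjusted p = 0.000119). Its neighbour on chromosome X, Slc25a5, which encodes an ADP/ATP carrier, changed by 0.97 ± 0.13, adjusted p = 0.000142 and fell short of 2-fold, with 1 gene between them in the annotation. Slc25a5 passed when the Th1 array of experiment 14 or 16 or the untreated array of experiment 16 was left out (1.01, 1.04 and 1.02). The 35 mitochondrial carriers not called ran from -0.89 to 0.97, with Slc25a16 the least changed (-0.01 ± 0.21). The class median was -0.03, with a positive sign in 6 of 23 other settings.

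Among carriers of monocarboxylates and organic ions 1 gene rose and 1 fell. Slc16a8 encodes MCT3, a lactate carrier known from the retinal pigment epithelium, and had 151, 368, 284 and 235 in Th1 microglia, 80.7, 74.8, 44.1 and 55 in Th17 microglia and 57.2, 67.3, 60.4 and 72 in untreated microglia. The Th1 arrays were above the rest at a low signal (1.95 ± 0.26, adjusted p = 0.000115). Slc22a4 encodes OCTN1, the ergothioneine carrier, and had 99.3, 73.3, 227 and 182 in Th1 microglia, 694, 278, 810 and 606 in Th17 microglia and 615, 481, 1036 and 566 in untreated microglia. It was lower on every Th1 array, and within each group the signal was highest in experiment 14 (-2.29 ± 0.41, adjusted p = 0.000955). Slc22a23, with no established substrate, had 15, 15.5, 19.6 and 15.1 in Th1 microglia, 86.8, 30.6, 105 and 41.5 in Th17 microglia and 39.1, 46.6, 168 and 36.1 in untreated microglia. It was well above background on 0 of 4 Th1 arrays and on all 8 others, and the untreated array of experiment 14 was the highest. The signal was at least 2.52-fold lower in Th1 than in untreated microglia (adjusted p = 0.011, not called), where the bound sets the mean of the untreated arrays against, per Th1 array, the higher of its own signal and the lowest signal of a probe well above background. The least changed of the class was Slc10a3 (-0.01 ± 0.09).

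In the lipid class Slc33a1, which brings acetyl-CoA into the endoplasmic reticulum, had 2895, 3319, 3908 and 2103 in Th1 microglia, 1262, 1168, 848 and 962 in Th17 microglia and 1156, 1315, 1079 and 1010.1 in untreated microglia. Every Th1 array was above every other array (1.39 ± 0.19, adjusted p = 0.000132). Slc44a1, a choline carrier, had 625 to 929 in Th1 microglia against 1933 to 2723 in untreated microglia (-1.47 ± 0.19, adjusted p = 7.89e-05), and 2 of its 3 probes were called. Slc27a1, a fatty acid carrier, had 2067 to 4455 in Th1 microglia against 5502 to 8922 in untreated microglia (-1.22 ± 0.29, adjusted p = 0.00475). The call of Slc27a1 was lost without the Th1 array of experiment 13 (adjusted p = 0.0161) or 14 (0.0155) and without the untreated array of experiment 12 (0.0146) or 16 (0.0153). The class members not called were the fatty acid carriers Slc27a3 (-0.45 ± 0.18) and Slc27a4 (-0.02 ± 0.12) and the choline carrier relative Slc44a2 (-0.23 ± 0.16).

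The 6 carriers of vitamins and cofactors had the lowest median of all classes (-0.88). At an unadjusted p under 0.05 in limma 4 of them were lower and 2 higher. The share of all genes at that p was not counted, and 44.3% of all genes passed an adjusted p under 0.05. Slc46a3, a lysosomal carrier related to the folate carrier Slc46a1, had 1269, 1016, 985 and 1164 in Th1 microglia, 15017, 5594, 12393 and 5658 in Th17 microglia and 12689, 9381, 11512 and 5848 in untreated microglia. Th1 arrays did not exceed 1269, and no other array was under 5594 (-3.10 ± 0.34, adjusted p = 2.5e-05). The proton-coupled folate carrier Slc46a1 had 3975 to 5682 in Th1 microglia against 7535 to 11950.2 in untreated microglia and, with a change just under 2-fold, was not called (-0.93 ± 0.20, adjusted p = 0.0029). Slc19a1, the reduced folate carrier, had 1248 to 2129.7 in Th1 microglia against 2686 to 3199 in untreated microglia (-0.93 ± 0.17, adjusted p = 0.0011, not called). They passed 2-fold without the untreated array of experiment 16 (-1.05) for Slc46a1 and the Th1 array of experiment 16 (-1.10) for Slc19a1. Slc19a2, a thiamine carrier, had 430.2 to 573 in Th1 microglia against 769 to 1049 in untreated microglia (-0.83 ± 0.15, adjusted p = 0.00101, not called). Slc23a2, which carries ascorbate, ran the other way, with 2739 to 3302 in Th1 microglia against 1513 to 1868 in untreated microglia (0.87 ± 0.10, adjusted p = 4.39e-05, not called), and the riboflavin carrier Slc52a2 changed by 0.30 ± 0.12, adjusted p = 0.0685. All but Slc46a3 were chosen here after their values were seen.

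Of the 8 carriers of vesicles and lysosomal anions 2 were called, both lower. Slc18b1, a vesicular polyamine carrier, had 106, 97.5, 99.8 and 183 in Th1 microglia, 660.4, 458, 612 and 669.7 in Th17 microglia and 737, 612, 548 and 775 in untreated microglia. The Th1 array of experiment 16 stood above the other 3 but below every array of the other groups (-2.50 ± 0.21, adjusted p = 4.14e-06). Slc18a1, the vesicular monoamine transporter VMAT1, had 50.4 to 91 in Th1 microglia against 166 to 270.1 in untreated microglia (-1.61 ± 0.21, adjusted p = 9.33e-05). Of the lysosomal peptide carriers Slc15a3 and Slc15a4, chosen here after their values were seen, Slc15a3 had 40108 to 48099 in Th1 microglia against 16259 to 27229 in untreated microglia and changed by 0.95 ± 0.18, adjusted p = 0.00115. It passed 2-fold without the untreated array of experiment 16 (1.03). Slc15a4, a scaffold of endosomal Toll-like receptor signalling, changed by -0.31 ± 0.14, adjusted p = 0.0905, and in a list of 5 genes of that signalling 0 were called by limma, with 1 higher and 1 lower at an unadjusted p under 0.05.

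All 4 called carriers of nucleosides and nucleotide sugars were lower, and they were 15.4% of the class, as many as of all genes. Of the class members not called, 3 were higher and 1 lower at an adjusted p under 0.01 in limma. Slc29a1 encodes ENT1, the equilibrative nucleoside transporter, and had 3481, 3699.9, 2974 and 4196 in Th1 microglia, 10593, 10444, 8077 and 10411 in Th17 microglia and 11018, 10365, 7802 and 9812 in untreated microglia. Th1 arrays did not exceed 4196, and no other array was under 7802 (-1.44 ± 0.15, adjusted p = 1.46e-05). Slc35g1, Slc35g2 and Slc35e4 belong to the nucleotide sugar family without a substrate that is settled. Slc35g1 had 314 to 427 in Th1 microglia against 1047 to 1280.3 in untreated microglia (-1.75 ± 0.16, adjusted p = 6.39e-06). Slc35g2 had 15 to 25.8 in Th1 microglia against 55.2 to 139.5 in untreated microglia (-2.06 ± 0.28, adjusted p = 0.000121), with 1 of 4 Th1 arrays well above background. Its fold rests on Th1 values at or near the floor, and with a floor of 50 it was -0.75 (adjusted p = 0.0441), not called. Slc35e4 had 3068 to 4145 in Th1 microglia against 6327 to 10591 in untreated microglia (-1.12 ± 0.17, adjusted p = 0.000304), and without the untreated array of experiment 14 its change of -0.97 was under 2-fold. The 22 others of the class ran from -0.77 to 0.96, with the UDP sugar carrier Slc35d1 the least changed (-0.02 ± 0.09).

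The creatine transporter Slc6a8 and the urea transporter Slc14a1 complete the called genes. Slc6a8 had 8598 to 12684 in Th1 microglia against 17067 to 26682 in untreated microglia (-1.03 ± 0.22, adjusted p = 0.00301), and the call was lost without the Th1 array of experiment 13 or the untreated array of experiment 12 (adjusted p = 0.0109 in either case). With the slide as a block it was also not called (-0.88, under 2-fold). Slc14a1 had 336, 279, 256 and 206 in Th1 microglia, 62.3, 111, 76.6 and 55.3 in Th17 microglia and 58.7, 47.6, 25.8 and 71 in untreated microglia. The Th1 arrays were above all others, and the Th17 array of experiment 13 was the next (2.48 ± 0.31, adjusted p = 6.35e-05). Beside the list counts that follow, 7.49% of all genes tested were called higher and 7.88% lower. In a list of Slc genes known mainly from astrocytes or neurons, 10 of 15 were measured, with Slc14a1 called higher and Slc27a1 lower. Of 19 measured carriers without an Slc symbol 2 were called, both lower. They were Ank, which exports pyrophosphate, with 714 to 899 in Th1 microglia against 6379 to 11063 in untreated microglia (-3.44 ± 0.17, adjusted p = 6.35e-08), and Flvcr1, a heme and choline carrier, with 2092 to 2525 in Th1 microglia against 4123 to 5249 in untreated microglia (-1.04 ± 0.15, adjusted p = 0.000161). The change of Flvcr1 was under 2-fold without the Th1 array of experiment 13 (-0.98) or the untreated array of experiment 13 or 16 (-0.99 for the last).

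Several Slc genes stood apart in experiment 14 and were chosen after their values were seen. Slc6a12, which carries betaine and GABA, had 15, 15, 1627 and 20.6 in Th1 microglia, 20.3, 47.2, 7967 and 41.3 in Th17 microglia and 17.1, 36.1, 8839.6 and 22.9 in untreated microglia. All 3 arrays of experiment 14 were above the 9 others, and the Th1 value was the lowest of the 3 (-1.01 ± 2.44, adjusted p = 0.762). Slc5a3, the myo-inositol carrier, had 30.9, 52.8, 96.9 and 50.6 in Th1 microglia, 121, 121, 418 and 123 in Th17 microglia and 86.2, 124, 823 and 111 in untreated microglia. Here too experiment 14 was highest in each group, and in each experiment the Th1 array was the lowest (-1.73 ± 0.68, adjusted p = 0.058). Slc7a11, the cystine and glutamate exchanger, had 29.5, 15, 217 and 15 in Th1 microglia, 153, 24.2, 435 and 85.7 in Th17 microglia and 37.3, 17.4, 531 and 101 in untreated microglia. Its groups overlapped (-1.15 ± 1.20, adjusted p = 0.464). The 4 fibroblast and mural markers had mean log2 signals of 7.71, 8.31 and 8.94 in Th1, Th17 and untreated microglia of experiment 14, against 6.95 to 7.65, 6.87 to 7.54 and 6.98 to 7.69 in the other experiments. The mean log2 signal of the astrocyte markers was likewise highest there, as were those of 9 oligodendrocyte lineage markers (8.92, 9.16 and 9.34 in Th1, Th17 and untreated microglia) and of 5 neuronal markers (7.43, 7.49 and 7.75). Single markers did not all follow the mean of their list. The part of these cell types in these genes was not tested.

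**Figure D4:**
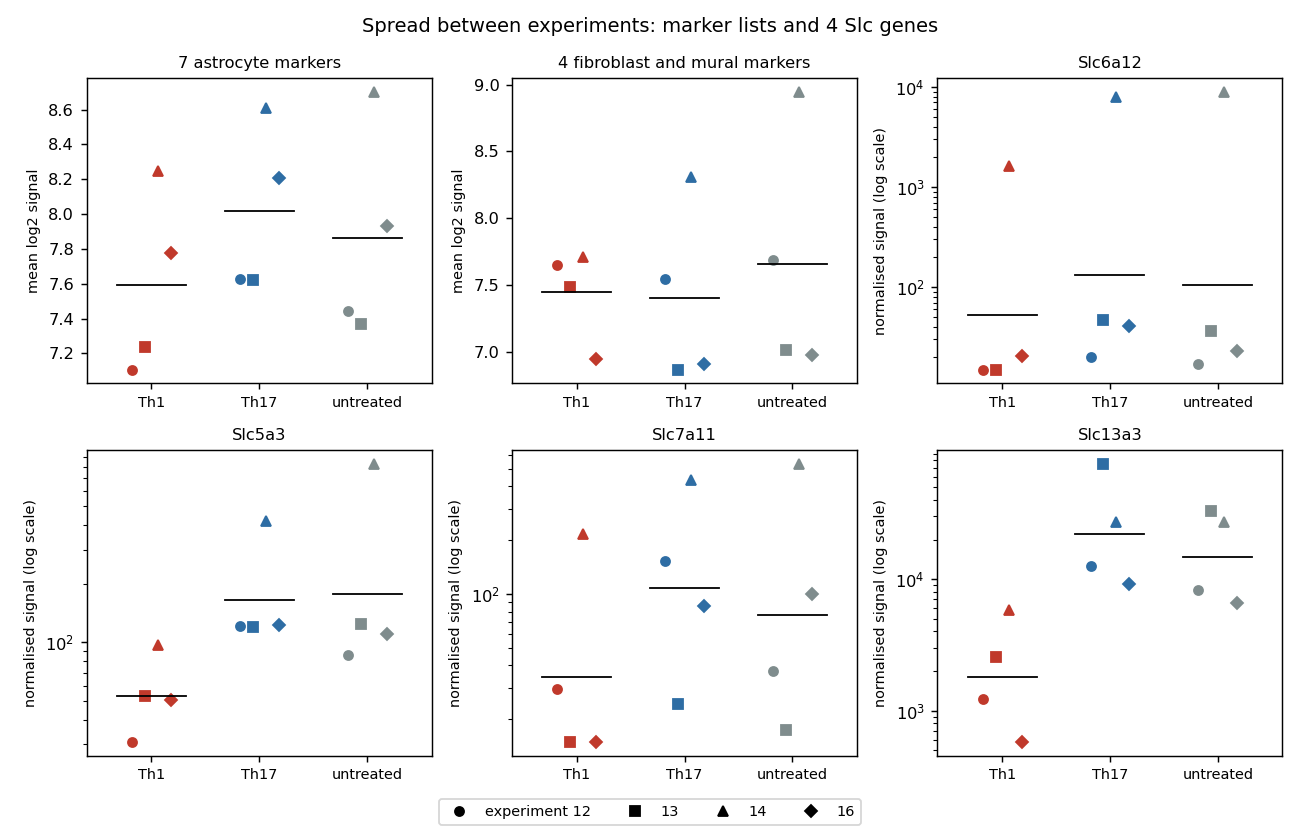
Mean log2 signal of 7 astrocyte markers and of 4 fibroblast and mural markers, and normalised signal (log scale) of Slc6a12, Slc5a3, Slc7a11 and Slc13a3, on each array, with symbols for the experiments and a bar at the mean of a group. Experiment 14 (triangles) is the highest of each group in the astrocyte, Slc6a12, Slc5a3 and Slc7a11 panels, and Slc6a12 reaches 8840 there in untreated microglia against at most 36.1 in the other 3 experiments.

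Slc13a3 encodes NaDC3, the sodium-coupled carrier of succinate and other dicarboxylates. It had 1229, 2549, 5804 and 580 in Th1 microglia, 12555, 74691, 27274 and 9127 in Th17 microglia and 8233, 32776, 27144 and 6552 in untreated microglia. In every experiment the Th1 array was the lowest, and the level differed several-fold between experiments (-3.04 ± 0.83, adjusted p = 0.0117). With the experiment as a block in the fit the adjusted p was 0.00013 and the gene was called, and it was also called without the Th1 array of experiment 14 (-3.60, adjusted p = 0.00583). The block added 4 further calls, all lower after Th1 supernatant. One was Slc22a23, whose Th1 values are at background on all 4 arrays, so that only the bound above holds for it. The others were the myo-inositol carrier Slc5a3 (blocked adjusted p = 0.00136), the zinc importer Slc39a4 (-1.66 ± 0.55, blocked adjusted p = 0.00102) and the organic cation carrier relative Slc22a18 (-1.05 ± 0.37, blocked adjusted p = 0.000765). The SEs are those of the fit without the block, in which none of these genes was called. Slc39a4 had 1538, 1700.2, 2767 and 2125 in Th1 microglia, 4501, 4588, 15341 and 3762 in Th17 microglia and 4039, 4830.3, 19653 and 4001 in untreated microglia, with the Th17 and untreated arrays of experiment 14 the highest. Calls under the block numbered 46, 14 higher and 32 lower, and included all 41.

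Th17 supernatant left the Slc genes near their untreated level. The log2 fold changes ran from -0.48 to 0.76, the median was -0.01, and 0 of 222 exceeded 2-fold. At an unadjusted p under 0.05, 4 Slc genes (1.80%) passed, against 325 of all genes (1.64%), and the lowest adjusted p of an Slc gene was 1. Slc39a14 encodes ZIP14, an importer of zinc and iron, and had 862, 877, 1377 and 1372 in Th1 microglia, 1533, 2559, 2651 and 2150.3 in Th17 microglia and 921, 1396, 1212 and 1742 in untreated microglia. Th17 microglia were higher than untreated microglia within each experiment, but the groups overlapped (0.76 ± 0.25, unadjusted p = 0.00995). The other 4 genes of lowest p were Slc22a6, the organic anion transporter OAT1 (-0.48 ± 0.16), Slc12a7, the potassium chloride cotransporter KCC4 (0.36 ± 0.13), Slc25a30, a mitochondrial carrier (-0.22 ± 0.09), and Slc14a1 (0.63 ± 0.31). Of the 41 genes called after Th1 supernatant, Slc14a1 had the largest Th17 change.

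Th1 and Th17 microglia were also compared directly, and this comparison shares the Th1 arrays with the comparison above. Of the 222 genes 15 were called higher and 27 lower in Th1 than in Th17 microglia, which is 6.76% and 12.2% against 6.89% and 7.91% of all genes, where 14.8% were called in all. These shares also rest on the unlike filters given above for Slc genes and for all genes. Genes that passed in 1 of the 2 comparisons are given here with their values, and the difference between the comparisons was not tested. Slc25a12 (0.98 ± 0.09 against Th17), Slc35e4 (-0.88 ± 0.17) and Slc6a8 (-0.78 ± 0.22, adjusted p = 0.0152) were not called against Th17. Slc13a3, Slc8b1, Slc22a28 and Slc25a42 were called against Th17 and not against untreated. Slc13a3 changed by -3.61 ± 0.83, adjusted p = 0.00464 against Th17, and the call was lost without the Th1 array of experiment 12 (adjusted p = 0.0156) or 16 (0.0129) or the Th17 array of experiment 13 (0.0132) or 14 (0.0138). Other calls against Th17 were also lost when 1 array was left out. Slc30a1 (0.94 without Th17 13) and Slc37a3 (0.84 without Th1 14 and 0.97 without Th17 13) fell under 2-fold, with adjusted p still under 0.01. The call of Slc38a1 was lost without Th1 12 (adjusted p = 0.0102). Slc30a1 also fell just short without Th1 12 (1.00, under 2-fold), and Slc27a1 lost its call without Th1 13 or 14 or Th17 12, 14 or 16 (adjusted p 0.0117 to 0.0157).

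Slc8b1 encodes NCLX, the mitochondrial sodium and calcium exchanger, and had 1664, 1011, 1298 and 989 in Th1 microglia, 489.5, 529.5 and 506 in Th17 microglia and 653, 566, 854 and 508 in untreated microglia. Its spot was left out on the Th17 array of experiment 12, so 11 arrays entered its fit. Th1 arrays were higher than all others (1.25 ± 0.21, adjusted p = 0.000862 against Th17, 0.94 ± 0.20, adjusted p = 0.00302 against untreated), and against untreated it passed 2-fold without the Th1 array of experiment 13 (1.03) or 16 (1.04) or the untreated array of experiment 14 (1.08). With the deposited log2 table its call against Th17 was lost (0.94, adjusted p = 0.0175). Its second probe, well above background on all 12 arrays, was called against Th17 (1.11) and not against untreated (0.86). Slc22a28, of the organic anion family, had 737 to 947 in Th1 microglia, 408 to 426 in Th17 microglia and 382 to 505 in untreated microglia and lay just past 2-fold (1.00 ± 0.11, adjusted p = 3.13e-05 against Th17), a margin lost without the Th1 array of experiment 12 (0.94) or 13 (0.99) or the Th17 array of experiment 14 or 16 (1.00 and 0.99, both under 2-fold) and with the slide as a block (0.98). Slc25a42, the mitochondrial coenzyme A carrier, had 144 to 252 in Th1 microglia, 342 to 409 in Th17 microglia and 266 to 349.5 in untreated microglia. It was lowest in Th1 and highest in Th17 microglia (-1.06 ± 0.16, adjusted p = 0.000295 against Th17), and the call was lost without the Th1 array of experiment 14 (-0.94) or with the slide as a block (-0.98). For Slc39a14 the values were -0.99 ± 0.25 for Th1 against Th17 (adjusted p = 0.007), just under 2-fold.

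Of the 222 genes 52 had several probes that met the rule. All probes gave the same call after Th1 supernatant in 45 of them, some but not all were called in 7 (among them Slc29a3, Slc30a7, Slc35d2, Slc38a1, Slc44a1 and Slc4a7), and 0 held opposite calls. The probes used for Slc29a3 and Slc35d2 fell just under 2-fold (0.96 ± 0.15 and 0.96 ± 0.20), and their second probes passed (1.09 and 1.01). In 10 the probes differed by over 1 on the log2 scale, and Slc4a7 was among these. Of the genes just inside the rule, on 8 arrays, Slc25a31, Slc38a3 and Slc6a12 were not called and Slc22a23 is given above, and just outside it, on 7 arrays, were Slc13a2, Slc16a9, Slc16a12, Slc28a2 and Slc2a4. Some neighbours in the annotation are also close relatives, so their probes may share signal. Slc22a4 (called lower) and Slc22a21 (-0.75 ± 0.18, adjusted p = 0.00593, not called) lie near each other on chromosome 11, and Slc38a1 (called lower) and Slc38a2 (-0.99 ± 0.45, adjusted p = 0.0952, not called) on chromosome 15.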

How the data were processed

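RNA of 12 microglia cultures was hybridised to 1-colour Agilent arrays of 39429 probes, 1 array per culture. The deposited files hold the scanner intensity of each spot (Feature Extraction 10.7.3.1, background-subtracted by the authors' software). A deposited table holds log2 values of the same arrays, centred per probe on an unstated basis, and was used only as an alternative. After the study's methods, flagged spots were left out (103 to 230 per array), repeated spots averaged as a geometric mean, arrays quantile-normalised, scaled to a 75th percentile of 1500, floored at 15 and put on the log2 scale. Probes well above background on at least 4 arrays were kept, and the probe of highest mean stood for a gene. The accessions of 27234 probes (69.1%) matched a RefSeq symbol (GRCm38.p6), and coordinates are of that build. Kept probes without a symbol were grouped by accession and are among the genes tested. Shares of all genes thus include such entries, while every Slc gene has a symbol.

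One limma model (limma 3.58.1, R 4.3.3) with 3 group means was fitted over 12 arrays without the experiment number. The same experiment numbers paired the samples: deviations from group means correlated at 0.24 to 0.63 between same-numbered arrays (12 of 12 over 0.1) and at -0.42 to 0.12 between others, so the fit with the experiment as a block is given where it changes a call. The spread is that between the 4 experiments. Alternatives were the deposited log2 table, no quantile step, normexp background with an offset of 50 (on the median spot signal), floors of 50 or none, other probe filters, the mean of all probes, slide and experiment blocks, 8 arrays alone, each array left out, and a looser threshold (adjusted p under 0.05). The number of arrays limits the precision.

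Members, substrate classes and lists were chosen with earlier results of these data known. By rule, the text names the 12 largest rises and falls among called genes, the extremes of each class, the least changed gene of most classes, the 5 genes of lowest p after Th17 supernatant, genes called against Th17 only and called list members. All other called genes and further genes said to be so were chosen after their values were seen. The values of 1 called gene are not reported here.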

Additional observations from a re-analysis of the deposited data

Results flagged for a closer look

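Of 233 sets of 4 arrays (named genes by group), 18 held an array whose gap to the nearest other exceeded Dixon's critical share of the range on the log2 scale, which chance gives in about 1 in 20 sets. Some of these genes had been named because of their spread. Experiment 14 held 13 of the 18. Slc6a12, the betaine carrier, had 1627 in Th1, 7967 in Th17 and 8839.6 in untreated microglia of experiment 14, against 15 to 20.6, 20.3 to 47.2 and 17.1 to 36.1 in the other experiments, and the Th1 array of experiment 14 was the only Th1 array well above background. Slc5a3, the myo-inositol carrier, had 418 in Th17 (others 121 to 123) and 823 in untreated microglia (86.2 to 124), and the zinc importer Slc39a4 had 15341 in Th17 (3762 to 4588) and 19653 in untreated microglia (4001 to 4830.3). Slc22a23 had 168 in untreated microglia (36.1 to 46.6) and 19.6 in Th1 microglia (15 to 15.5), where no array was well above background and the floor of 15 sets the gap. Slc38a2, a glutamine carrier, had 8321 in Th1 microglia (3821 to 4337). Slc29a1 had 8077 in Th17 microglia (10411 to 10593), Slc7a4 had 1967 in untreated microglia (879 to 986) and the transcription factor Atf5 had 8751 in untreated microglia (5212 to 5474).

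The other 5 were in experiments 12, 13 and 16. Slc18b1 had 183 in Th1 microglia of experiment 16 (others 97.5 to 106). Slc4a7 had 1306 (2273 to 2291) and Slc7a6 had 193 (293 to 318) in Th1 microglia of experiment 12. Slc25a5 had 40277 (30162 to 31485) and Slc31a2 had 28963 (16584 to 18152) in Th17 microglia of experiment 13. The mean log2 signals of the marker lists of astrocytes, oligodendrocyte lineage cells, neurons, and fibroblasts and mural cells were highest in experiment 14 in each group. Not every single marker followed its list, and Aldh1l1 and Mog were lowest there among the untreated arrays. The part of these cell types was not tested.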

How the results depend on the processing

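Between Th1 and untreated microglia 36 to 46 Slc genes were called over 12 other settings (12 to 17 higher, 24 to 32 lower), and 41 to 49 with each array left out in turn (13 to 19 higher, 26 to 30 lower). Between Th1 and Th17 microglia these were 35 to 51 (12 to 19, 23 to 32) and 38 to 51 (13 to 18, 25 to 33). At an adjusted p under 0.05 with no fold minimum, 107 genes passed against untreated (49 higher, 58 lower) and 102 against Th17 (49 higher, 53 lower). After Th17 supernatant 0 were called in every setting. With the experiment as a replicate block, 46 were called against untreated and 45 against Th17, with Slc5a3, Slc39a4 and Slc22a23 gained in both, and no call was lost against untreated. No called gene changed sign in any setting. The change of Slc6a12, called in no setting, ran from -2.67 to 1.12 with each array left out, and was reversed without the untreated array of experiment 14 (1.12, adjusted p = 0.707). Without the 3 arrays of experiment 14, an alternative chosen after seeing the data, 42 were called against untreated, with Slc27a1, Slc37a3, Slc38a1 and Slc6a8 lost and Slc5a3 (-1.28), Slc39a4, Slc25a37, Slc39a6 and Slc8b1 gained. Normexp background lost Slc16a8, Slc18a1, Slc35g2, Slc37a3 and Slc6a8, the mean of all probes lost Slc4a7 (-0.30), the slide as a block lost Slc6a8 (-0.88) and a floor of 50 lost Slc35g2 (-0.75). The deposited log2 table lost Slc35e4, Slc37a3 and Slc6a8, and scaling without the quantile step lost Slc37a3 and Slc6a8. Both of these settings gained Slc12a7, Slc15a3, Slc25a37 and Slc25a5. With no filter on dim probes Slc27a1 was lost. The causes were not tested.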
